A study of Mus musculus with 4 samples.

Results

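Lone intronic sites are stretches of open chromatin that lie inside an intron, away from any annotated gene start, with no other reproducibly open site nearby. They were taken from DNase-seq, in which the enzyme DNase I cuts accessible DNA and peaks mark where cuts pile up, of naive resting alpha-beta T cells labelled CD8-positive, the antigen-inexperienced precursors of cytotoxic T cells. The mice were females of B6CASTF1/J, a first-generation cross of the C57BL/6J and CAST/EiJ strains, 2 months old, and the 4 libraries carry the labels of biological replicates 1 to 4. All 4 form 1 group with no treatment and no control, and the labels tie the 4 biosamples to the same donor identifier, so it is not given whether they came from separate animals, and p-values cover library spread, which may be technical.

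The longer peak list of each library was merged by overlaps of at least 1 bp, which gave 84292 sites on chromosomes 1 to 19. Of these, 17134 were called in all 4 libraries, and 5668 of those lay over 1 kb from any start in GENCODE mouse release 21. A total of 2302 of them lay inside a gene and touched no exon. The rule kept those with no other site called in at least 3 libraries within 12.5 kb, which left 785 lone intronic sites. The other 1517 intronic sites called in all 4 libraries, each with such a neighbour, are called clustered intronic sites and serve for comparison. Of all 25167 intronic merged sites, 9.15% were called in all 4 libraries. Membership was therefore chosen by peak calls, and the depth of the libraries bears on it. Leaving out a library and requiring all 3 others for members and neighbours gave 1399 sites without replicate 1, 1393 without replicate 2, 1403 without replicate 3 and 3551 without replicate 4.

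Most vertebrate enhancers sit in introns or between genes and often come in groups, and each can hold binding motifs for several transcription factors. Sites that stand alone include binding sites of CTCF, a zinc-finger protein that binds a long, directional DNA motif and, with cohesin, anchors chromatin loops. In T cells, RUNX, ETS and TCF/LEF family factors bind many of the other distal open sites. A bound protein shields its motif from DNase I and leaves a footprint, a short stretch with fewer cuts than its flanks.

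The libraries differed in depth and at marker genes. The longer lists held 69413, 70552, 51121 and 20647 peaks in replicates 1 to 4, and the footprint lists 170815, 149082, 137861 and 26149 entries. Low heights fell on whole multiples of 1 step, whose reciprocal, which reads as the depth in M tags, was 109, 62.9, 91.5 and 24.3. Relative height is the deposited peak value, scaled to library depth, over the library's median at the sites called in all 4 libraries. The promoter of Cd8a, which encodes a chain of the CD8 coreceptor, had a relative height of 0.493 and 0.362 in replicates 1 and 2 and no peak in replicates 3 and 4. Cd8b1, which encodes the other chain, had 1.11, 1.42, 1.02 and 0.596. Cd3d and Lck, 2 further T cell genes, had a peak in all 4 libraries, and Cd3e in all but replicate 4. Zbtb7b, the helper-lineage factor, had 0.249, 0.355, 0.741 and 1.12, and the B cell gene Cd79a had no peak in replicates 1 and 2 but 0.345 and 0.684 in replicates 3 and 4. Another B cell gene, Pax5, had 0.579, 0.642, 1.01 and 1.67, and Ms4a1 had 0.0661, 0.0453, 0.273 and no peak. The myeloid genes Lyz2 and Itgam had peaks from 0.0868 to 0.242 in replicates 1 to 3 and none in replicate 4. Cd4, Csf1r and Hbb-bs had no promoter peak in any library. Replicates 3 and 4 thus went against the label at Cd8a. Replicate 4 was also the shallowest and lacked the Cd3e peak, and the part of depth in these absences was not tested. Values are therefore given for each library, and what replicates 1 and 2 alone gave is stated beside the main comparisons.

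Sequences of some of the sites are given first, and counts over all of them follow. The lines below give the 5 among the 10 highest lone sites whose central 200 bp hold an exact match to the CTCF consensus, a 13-base motif, read along the strand of the match with the match in capitals and 25 bases on each side. Each name is that of the host gene, and letters and positions are those of the GRCm38 (mm10) reference, not of the CAST/EiJ allele.
Gm14005, chr2:128396101-128396163, minus strand: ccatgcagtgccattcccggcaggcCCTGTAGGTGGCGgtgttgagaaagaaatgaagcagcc
Emid1, chr11:5115114-5115176, plus strand: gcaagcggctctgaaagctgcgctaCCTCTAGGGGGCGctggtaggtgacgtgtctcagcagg
Pde4d, chr13:109776259-109776321, plus strand: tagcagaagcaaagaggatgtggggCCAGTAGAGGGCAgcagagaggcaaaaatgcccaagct
Sept9, chr11:117238317-117238379, plus strand: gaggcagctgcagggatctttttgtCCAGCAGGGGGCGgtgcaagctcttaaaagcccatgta
Phc2, chr4:128711535-128711597, plus strand: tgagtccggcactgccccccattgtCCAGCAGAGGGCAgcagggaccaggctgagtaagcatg
All 5 matches end in GGCG or GGCA, but the sites were picked for an exact match, so shared letters follow from that choice. Of the 7 lone sites whose host is in a gene list, 4 carry the motif, and they are shown here after their values were seen. Those in Prkcq, Skap1 and Pax5 are exact matches, and the one in Spi1 differs from the consensus at 1 position.
Prkcq, chr2:11288619-11288681, minus strand: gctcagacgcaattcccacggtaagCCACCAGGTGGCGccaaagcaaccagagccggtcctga
Skap1, chr11:96621365-96621427, minus strand: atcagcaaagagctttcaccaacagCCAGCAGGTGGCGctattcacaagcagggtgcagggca
Pax5, chr4:44564723-44564785, plus strand: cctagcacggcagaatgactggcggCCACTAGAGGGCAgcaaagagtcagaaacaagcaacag
Spi1, chr2:91101559-91101621, minus strand: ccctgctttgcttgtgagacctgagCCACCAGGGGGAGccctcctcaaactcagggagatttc
The 3 highest lone sites without an exact match were those in Il31ra, Gphn and Gm10069. The Gm10069 window holds a match with 1 mismatch, in capitals, and the other two hold none, so their central 63 bases are given on the plus strand.
Il31ra, chr13:112578209-112578271, plus strand: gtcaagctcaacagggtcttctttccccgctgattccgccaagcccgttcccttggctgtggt
Gphn, chr12:78350959-78351021, plus strand: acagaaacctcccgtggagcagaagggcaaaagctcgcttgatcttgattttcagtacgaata
Gm10069, chr6:128479962-128480024, minus strand: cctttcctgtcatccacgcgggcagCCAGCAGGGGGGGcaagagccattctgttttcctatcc

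An exact match to the CTCF consensus was present in the central 200 bp of 249 of the 785 lone sites (31.7%), and a match with at most 1 mismatch in 509 (64.8%). Among clustered intronic sites the shares were 26.0% and 54.4%. Among all sites called in all 4 libraries they were 13.2% and 30.7%, and among the 11466 of these that lay within 1 kb of a start 5.11% and 16.4%. The 829 lone intergenic sites, chosen by the same isolation rule outside genes, had 34.6% and 67.4%. In 1570 windows of the same length 1 kb to either side of the lone sites, the shares were 0.191% and 2.87%. The lone intronic sites therefore held CTCF matches more often than the clustered ones by 5.75 percentage points, and the size of this difference depended on the selection. It was 1.41 points when each peak had to cover 50% of the merged site, 2.67 points at an isolation distance of 25 kb and 7.03 points when members were selected from replicates 1 and 2 alone. It was 3.56 points without replicate 1, 3.34 without replicate 2, 3.71 without replicate 3 and 5.40 without replicate 4. Genome sequence has no replicates, so these shares are descriptions with no test.

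**Figure D1:**
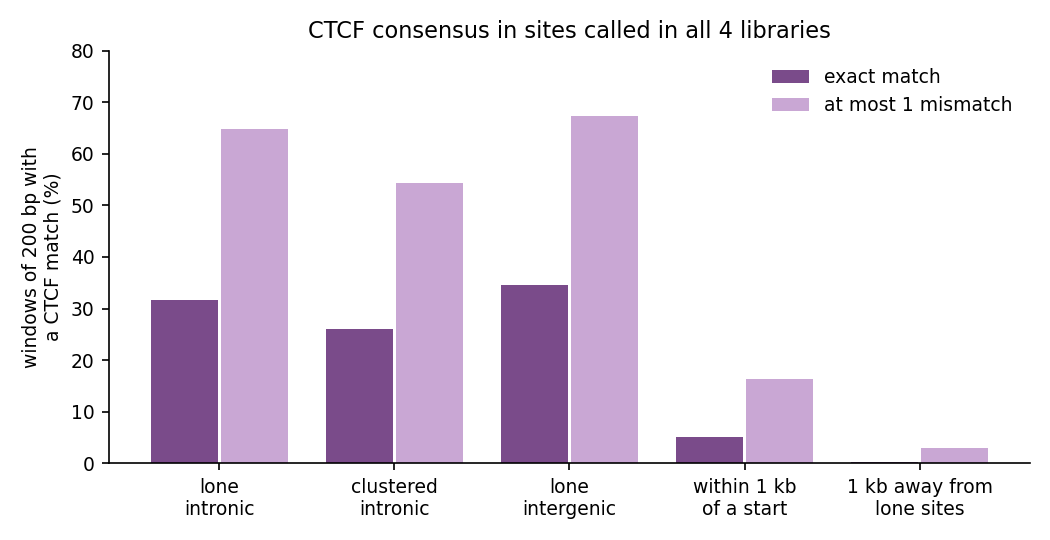
Percent of 200 bp windows (vertical axis) with an exact CTCF match (dark bars) or a match with at most 1 mismatch (light bars), for lone intronic sites, clustered intronic sites, lone intergenic sites, sites within 1 kb of a start, and windows 1 kb away from the lone intronic sites. Lone intronic sites stand at 31.7% and 64.8%, next to the lone intergenic ones, and the windows 1 kb away at 0.191% and 2.87%.

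The share moved with the distance to the nearest site mainly at short range. Lone sites 12.5 to 25 kb, 25 to 50 kb and over 50 kb from the nearest site called in 3 or more libraries held an exact match in 33.5%, 30.6% and 29.3% of cases. Clustered intronic sites 5 to 12.5 kb and 1 to 5 kb from a neighbour held one in 30.5% and 28.5%, and those within 1 kb in 16.1%. With at most 1 mismatch the shares of lone sites were 65.4%, 62.6% and 67.3% from the nearest to the farthest class, against 63.1%, 58.6% and 36.3% in clustered sites from the farthest to the nearest. The lone sites thus lay close to clustered sites with a neighbour beyond 5 kb, and the sites within 1 kb of a neighbour had the lowest share of the 6 classes.

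**Figure D2:**
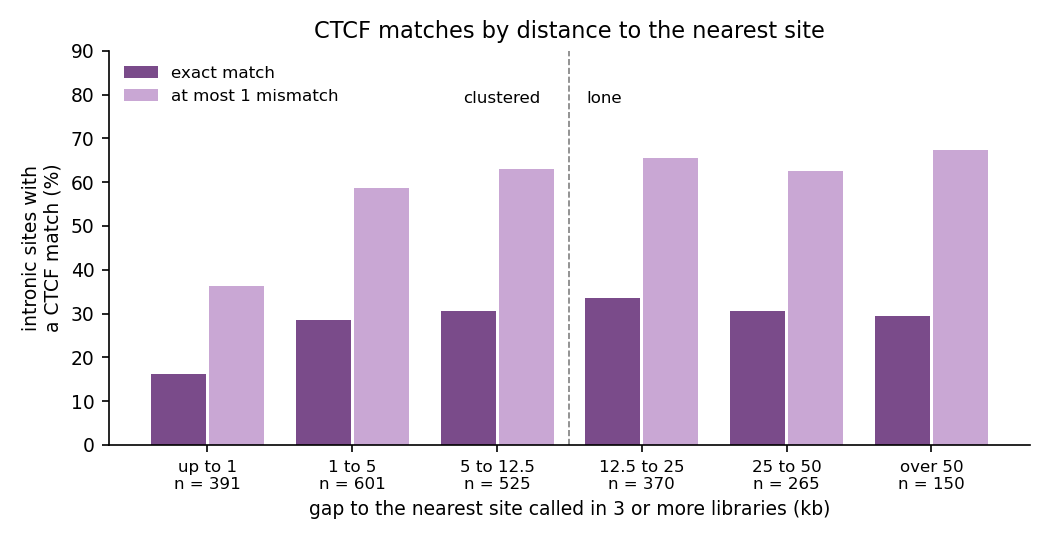
Percent of intronic sites with a CTCF match (vertical axis) by the gap to the nearest site called in 3 or more libraries, in kb, with dark bars for exact matches and light bars for at most 1 mismatch. Sites right of the dashed line are the lone ones, and the bars of the leftmost class, 16.1% and 36.3%, are the lowest.

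The matches lay at the centre of the open sites. Of the 249 sites with an exact match, 231 (92.8%) had its centre within 25 bp of the midpoint of the site, with a median offset of 7 bp. Only 5 of the 249 sites held 2 or more exact matches. The motif is directional, and of the 238 sites whose host genes all lay on 1 strand, it pointed along the host gene in 111 and against it in 127.

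Footprints covered these matches in the 3 deeper libraries. A footprint overlapped the match in 245, 246 and 241 of the 249 lone sites in replicates 1, 2 and 3 (98.4%, 98.8% and 96.8%), and in 44 (17.7%) in replicate 4. Lone sites without an exact match had a footprint anywhere in the site in 98.88%, 99.07%, 97.95% and 30.22% of cases. Central footprints, with a midpoint within 50 bp of the site midpoint, were also counted. Their share was a mean of 6.55 percentage points higher in sites with an exact match than in other lone sites. Over the bases of the match the mean cover was 97.7%, 98.2%, 93.3% and 11.8% of sites, and over the bases 30 to 50 away from its centre it was 3.74%, 4.32%, 2.75% and 0.861%. Those low values are not a background level, since the cover rose again farther out. At 60 bases upstream it was 22.9%, 22.5%, 16.1% and 2.01%, and at 60 bases downstream 28.5%, 42.6%, 22.5% and 2.01%. Clustered sites with a match had a footprint on it in 100%, 100%, 98.7% and 34.5% of cases. The cover was not symmetric about the match, and which side was higher changed with distance. At 20 bases upstream of its centre, 44.6%, 43.4%, 30.9% and 4.02% of lone sites had a footprint, against 13.7% in each of replicates 1 to 3 and 2.41% in replicate 4 at 20 bases downstream. At 13 bases the order was the other way, with 32.1%, 42.6%, 28.9% and 4.42% of sites upstream, against 82.3%, 83.5%, 70.3% and 9.64% downstream.

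**Figure D3:**
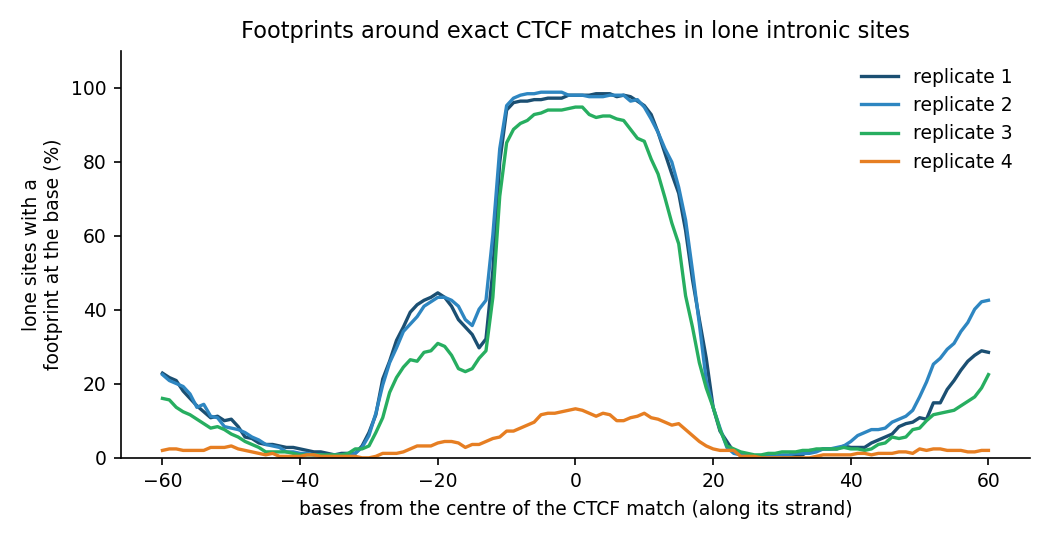
Percent of the 249 lone sites with an exact CTCF match that had a footprint at each base (vertical axis), by distance in bases from the centre of the match along its strand, 1 line per library. The lines of replicates 1 to 3 rise above 90% over the match, with a shoulder upstream near 20 bases from the centre, and that of replicate 4 stays under 14%.

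A total of 276 lone sites held no CTCF match even with 1 mismatch. These were wider, with a median merged width of 260 bp, against 200 bp in the 509 lone sites with one. The words of the 5 families given next were more frequent in them, while some others were less frequent. Words were counted as exact matches on either strand in the central 200 bp. The RUNX word TGTGGTT stood in 13.8% of them, against 5.30% of lone sites with a CTCF match and 5.16% of windows 1 kb away. The ETS word ACAGGAAG stood in 10.5%, against 2.55% and 2.17%. For GAGGAAGT, the word of the ETS-family factor PU.1, the shares were 6.88%, against 2.16% and 1.53%. GGGCGGG, the word of the Sp and Kruppel-like factors, stood in 9.06%, against 2.55% and 1.78%. CTTTGATC, of TCF and LEF factors, was found in 5 sites without a CTCF match (1.81%) and in none of the 509 with one, against 0.828% of windows 1 kb away. The ETS and PU.1 words share the core GGAAG, and GGGCGGG can overlap the G-rich end of the CTCF motif. Over all sites called in all 4 libraries the shares were 3.76% for TGTGGTT, 3.28% for ACAGGAAG, 2.46% for GAGGAAGT and 29.7% for GGGCGGG.

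Clustered intronic sites without a CTCF match, 692 in number, had 11.3% for the RUNX word, 10.8% for ETS, 5.92% for PU.1 and 10.3% for GGGCGGG. The differences between lone and clustered sites without a CTCF match have no test, and were larger for other words, such as CAGGTG with 15.6% in lone and 20.8% in clustered sites, and CCCACCC, a word of Kruppel-like factors, with 8.70% and 13.9%. Among the other families, CAGGTG, the E-box word of E proteins, stood in 24.1% of all lone sites and 16.1% of windows 1 kb away. It can lie inside a CTCF match, and stood in 28.7% of lone sites with such a match. The AP-1 word TGANTCA stood in 6.62% of lone sites and 6.43% of those windows, the NFAT word TGGAAAA in 3.18% and 4.78%, and the GATA word AGATAA in 6.50% and 11.1%. Lone sites without a CTCF match held the NFAT word in 1.09% of cases, against 4.32% of those with one. A word is a description of the letters in the window and says nothing of which protein was bound.

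The next lines show, for each of these 4 words, the 2 highest lone sites that hold it, lack any CTCF match and have a central sequence found once in the genome. The word is in capitals.
Slc38a1, chr15:96599037-96599094, minus strand: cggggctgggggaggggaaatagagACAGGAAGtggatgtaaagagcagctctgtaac
Znrf1, chr8:111595835-111595892, plus strand: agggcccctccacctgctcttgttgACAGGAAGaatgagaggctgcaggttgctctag
Itsn1, chr16:91826011-91826067, plus strand: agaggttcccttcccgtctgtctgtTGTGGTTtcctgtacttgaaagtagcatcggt
Gm2682, chr15:60141809-60141865, minus strand: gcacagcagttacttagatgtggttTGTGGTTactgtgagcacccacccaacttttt
Hlcs, chr16:94185550-94185607, plus strand: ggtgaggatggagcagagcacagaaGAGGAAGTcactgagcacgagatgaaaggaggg
Rapgef4, chr2:72170691-72170748, minus strand: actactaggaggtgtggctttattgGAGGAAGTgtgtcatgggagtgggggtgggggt
Gm20517, chr17:47629482-47629538, plus strand: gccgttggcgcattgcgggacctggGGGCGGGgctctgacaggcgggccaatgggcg
Creb3l1, chr2:92008351-92008407, minus strand: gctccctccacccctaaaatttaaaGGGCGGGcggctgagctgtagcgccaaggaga
The first pair shows the ETS word, the next pair the RUNX word, the third pair the PU.1 word and the last pair the Sp and Kruppel-like factor word. The Gm2682 line holds a further copy of TGTGGTT, left in lower case, directly before the one in capitals. Slc38a1 encodes an amino acid transporter, Itsn1 an endocytic scaffold, Hlcs the enzyme that attaches biotin to carboxylases, and Creb3l1 a membrane-bound transcription factor. The site in Gm20517 lay 1050 bp from an annotated start, just past the 1 kb limit, and its central 200 bp had 70.0% GC. Its mean relative height was 1.85 ± 0.126 (SD, n = 4 libraries), and that of the Creb3l1 site was 1.70 ± 0.162. The RUNX example in Itsn1 had 1.29 ± 0.337 and the ETS example in Slc38a1 1.04 ± 0.155.

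A search over all 8-letter words, with no list behind it, returned pieces of the CTCF motif. Of the 1222 words present in at least 2% of lone sites, GCGCCCCC had the highest ratio to the windows 1 kb away, with 63 lone sites (8.03%) against 0 of 1570 windows, and 56 of the 63 held a CTCF match with at most 1 mismatch. AGGGGGCG, which also forms the end of the motif, stood in 81 sites (10.3%) against 2 windows. ACTAGATG, which can lie across the middle of the motif, stood in 17 sites (2.17%) against 0 windows, and all 17 held a CTCF match with at most 1 mismatch. In clustered intronic sites GCGCCCCC stood in 8.635%, AGGGGGCG in 9.03% and ACTAGATG in 1.12%, so GCGCCCCC was no more frequent in lone sites than in clustered ones. These words were picked for their ratio, so the ratios are descriptions.

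The heights of the lone sites went against the word strong in their working name. By construction the sites called in all 4 libraries have a median relative height of 1. The median relative height of the lone sites was 0.575, 0.566, 0.505 and 0.526 in replicates 1 to 4, so they lay below that median in every library. Only 133, 172, 97 and 91 of the 785 exceeded 1. Lone intergenic sites had medians of 0.595, 0.577, 0.536 and 0.561, close to those of the lone intronic ones. Clustered intronic sites had medians of 0.764, 0.783, 0.676 and 0.702, and sites within 1 kb of a start 1.22, 1.20, 1.32 and 1.31. The sites are therefore called lone intronic sites here.

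Lone sites were lower than clustered intronic sites in 4 of 4 libraries. The difference of the medians on the log2 scale was -0.41, -0.47, -0.42 and -0.42, a mean of -0.43 ± 0.027 (SD, n = 4). The two-sided exact sign-flip permutation test over libraries gave p = 0.125, the smallest that 4 libraries allow, and an adjusted p of 0.25 over 6 tests (Benjamini-Hochberg), so this design cannot pass 0.05. The difference of 0.43 was large against its spread over libraries, and stayed between -0.56 and -0.31 under the alternatives that were run and could change it. It was -0.53 when members and neighbours were selected from replicates 1 and 2 only. The distributions overlapped widely. In replicate 1 the lone sites spanned 0.390 to 0.837 from the lower to the upper quartile, against 0.518 to 1.12 in clustered sites.

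**Figure D4:**
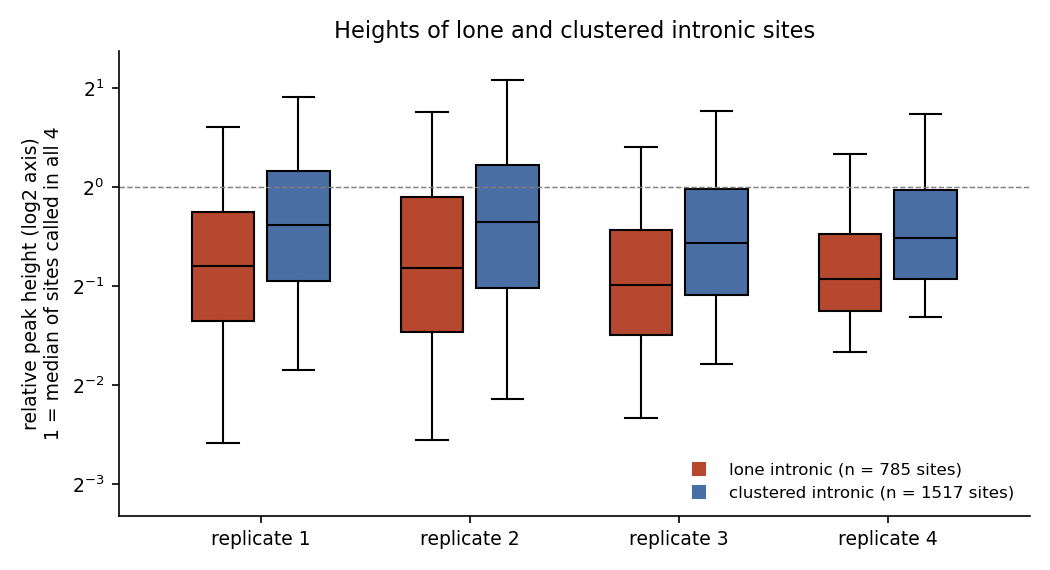
Relative height (log2 axis) of lone intronic and clustered intronic sites in each library, with boxes from the lower to the upper quartile, a line at the median and whiskers from the 5th to the 95th percentile of sites. The lone boxes have medians from 0.505 to 0.575 and the clustered ones from 0.676 to 0.783, with boxes that overlap in every library.

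Among the lone sites, the more isolated classes were the lower ones. The median of the mean relative height was 0.644 at gaps of 12.5 to 25 kb (370 sites), 0.520 at 25 to 50 kb (265 sites) and 0.442 over 50 kb (150 sites). Clustered sites had 0.732 within 1 kb of a neighbour, 0.764 at 1 to 5 kb and 0.698 at 5 to 12.5 kb. The order across all 6 gap classes was thus not strictly falling, since the 1 to 5 kb class was the highest.

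Peak widths were close in the 2 sets. Median widths in the longer lists were 180, 180, 200 and 149 bp in lone sites, against 200, 180, 200 and 155 bp in clustered ones, a mean difference of -6.5 ± 9.43 bp (exact sign-flip permutation p = 0.5, adjusted p = 0.6, n = 4). It was -16.5 bp when members were selected from replicates 1 and 2 only.

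The number of sites with a footprint differed between the libraries more than between the sets. In replicates 1 to 3, 99.1%, 99.2% and 98.5% of lone sites overlapped a footprint, against 98.9%, 98.9% and 98.0% of clustered sites and 96.1%, 95.7% and 95.8% of all sites called in all 4 libraries. In replicate 4 the shares were 30.7% of lone sites (241 sites), 35.7% of lone intergenic sites, 45.6% of clustered sites and 62.4% of all sites. The difference between lone and clustered sites was +0.23, +0.36, +0.45 and -14.9 percentage points, a mean of -3.47 ± 7.63 (exact sign-flip permutation p = 1.0, adjusted p = 1.0, n = 4), and the sign of that mean rests on replicate 4. It was -4.62 points when members were selected from replicates 1 and 2 only.

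In replicate 4 the footprint share followed height. It was 9.55%, 8.28%, 21.0%, 34.4% and 80.3% in the 5 equal classes of lone sites from the lowest to the highest. Clustered sites in the same height ranges had 13.0%, 12.1%, 26.2%, 37.5% and 78.8%, so within each height range the 2 sets lay closer together than over all heights. Lone sites were lower than clustered ones in replicate 4 by about as much as in the other libraries, and the part of height in the footprint difference was not tested beyond these classes.

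Sites also in the shorter, stricter peak list made up 98.9%, 99.4%, 96.1% and 45.9% of lone sites in replicates 1 to 4. Clustered sites had 99.5%, 99.6%, 98.5% and 45.7%, and all sites called in all 4 libraries 99.5%, 99.3%, 98.8% and 70%. The mean difference between lone and clustered sites was -0.81 ± 1.16 percentage points (exact sign-flip permutation p = 0.25, adjusted p = 0.375, n = 4), lower in 3 of 4 libraries. It was -0.51 points when members were selected from replicates 1 and 2 only.

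Lone sites with an exact CTCF match were slightly higher than the other lone sites. Their median relative height was 0.577, 0.615, 0.529 and 0.579, against 0.575, 0.540, 0.492 and 0.509 in the 536 without one. The log2 difference was 0.0055, 0.19, 0.11 and 0.19, a mean of 0.12 ± 0.086 (exact sign-flip permutation p = 0.125, adjusted p = 0.25, n = 4). It turned to -0.14 with the shorter lists and to -0.073 when each peak had to cover 50% of the merged site, and was 0.013 without replicate 2, 0.050 without replicate 3, 0.48 without replicate 4 and 0.56 with replicates 1 and 2 only. Its size and direction therefore depended on how the members were selected. The share with a footprint was 99.6%, 99.6%, 99.6% and 31.7%, against 98.9%, 99.1%, 97.9% and 30.2%, a mean difference of 1.10 ± 0.558 points (exact sign-flip permutation p = 0.125, adjusted p = 0.25, n = 4). This too changed sign, to -1.58 points with the shorter lists and -0.617 points at 50% cover, and was 5.03 points without replicate 4 and 6.33 points with replicates 1 and 2 only. Across the 5 height classes of lone sites, an exact match stood in 21.0%, 30.6%, 43.3%, 28.7% and 35.0% from the lowest to the highest, so the share was lowest in the lowest class and highest in the middle one.

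The 10 highest lone sites spanned a wide range. The highest lay in intron 2 of Il31ra, which encodes a chain of the interleukin 31 receptor, at chr13:112578161-112578320, and reached 9.81, 7.75, 13.9 and 15.6 times the median of its library in replicates 1 to 4. The next lay in intron 2 of Gphn, the gene of the synaptic scaffold protein gephyrin, at chr12:78350861-78351120, with 5.89, 3.92, 8.34 and 8.30. Both were lower in replicates 1 and 2 than in replicates 3 and 4. The central 36 bases of these sites were found 2 and 4 times on the assembled chromosomes and the mitochondrial genome of the reference. Other sequence was not searched, so more copies may exist, and reads at these sites could come from any of them.

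The other 8 had mean relative heights from 2.10 to 2.48. The site in the long non-coding gene Gm14005 (chr2:128396041-128396220) had 2.26, 2.52, 2.18 and 2.95. That in the antisense gene Gm10069 (chr6:128479861-128480040) had 2.52, 3.22, 2.35 and 1.63. Emid1 held its site in intron 13 of 14 (chr11:5115021-5115200), with 2.42, 2.89, 1.98 and 1.95. All 3 exceeded 1 in every library, and all 3 carried a CTCF match with at most 1 mismatch. Pde4d, a phosphodiesterase that breaks down cyclic AMP, held one in intron 7 (chr13:109776201-109776400) with 2.28, 2.42, 2.23 and 2.09, the smallest spread of the 10 on the log2 scale (SD 0.089). Fgfr2, a fibroblast growth factor receptor, held one at chr7:132551841-132552040 with 2.11, 2.67, 2.29 and 1.79. The Fgfr2 site was placed in an annotated intron of 2909 kb, against a median of 16.7 kb for the lone sites. Its host name therefore rests on that very long intron. The cytoskeletal septin gene Sept9 (chr11:117238241-117238440) had 2.40, 2.39, 2.06 and 1.70. Phc2, a subunit of Polycomb repressive complex 1, held one in intron 6 of 14 (chr4:128711481-128711700) with 2.37, 2.52, 2.05 and 1.47. In Fgfr2, Sept9 and Phc2 replicate 4 was the lowest library. The long non-coding gene D130009I18Rik also held one of the 10 (chr14:104715721-104715980), with 1.42, 0.947, 3.28 and 3.49 and a centre found 8 times in the genome. Of the 10, 5 had an exact CTCF match, 2 more a match with 1 mismatch, and the 3 without any were the 3 whose centres occur more than once.

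**Figure D5:**
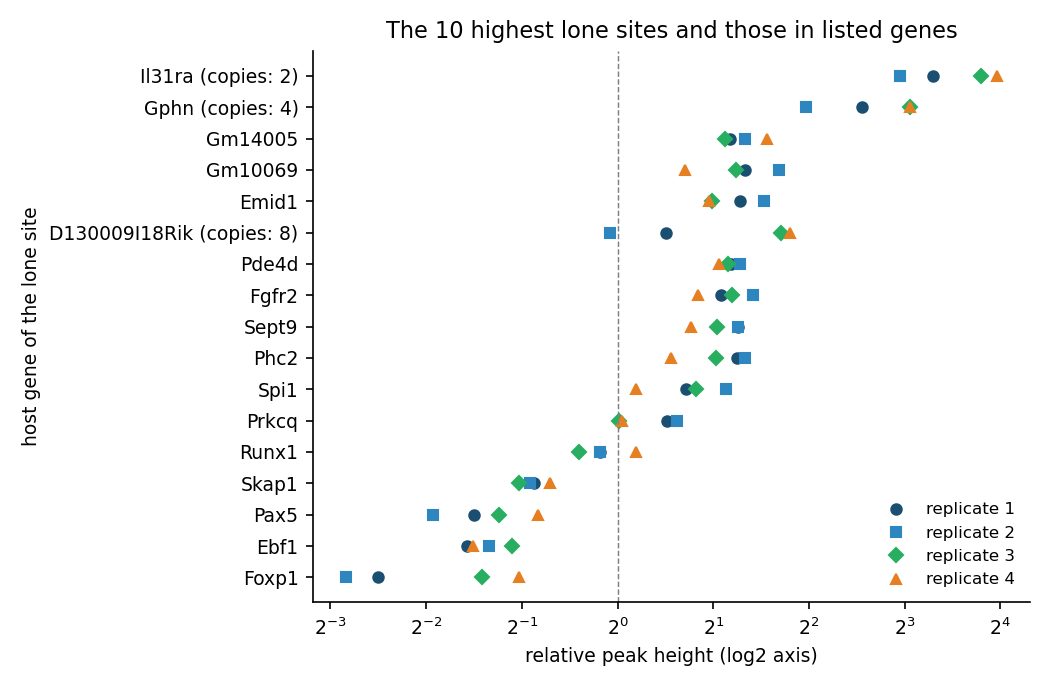
Relative height (log2 axis) in each library of the 10 highest lone sites and of the 7 whose host gene is in a gene list, from the highest mean at the top, with the number of genome copies of the central 36 bases where it is above 1. The sites with copies had their highest values in replicates 3 and 4, and Pde4d had values between 2.09 and 2.42 in all 4.

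The centre of 773 lone sites occurred once in the genome and that of 12 more than once, up to 495 times for the site in Pcdh9. In 7 of the 12 (58.3%), both replicates 3 and 4 exceeded both replicates 1 and 2, against 122 of the 773 (15.8%). The Pcdh9 site (chr14:93214861-93215160) had 0.683, 0.298, 1.55 and 2.23, had a centre wholly in annotated repeat and was also the most isolated, 2919 kb from the next site. Of the 12, 2 held a CTCF match with at most 1 mismatch, against 507 of the 773. The multi-copy sites are 12 of 785 and do not bear on the medians above, but they include the tallest members.

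At the other end, the lowest lone sites were called in all 4 libraries at a small part of the median height. The site in Gm26991, an unprocessed pseudogene, had 0.0661, 0.0377, 0.0887 and 0.281, and its centre occurred 8 times. Those in Glis3, a zinc-finger factor gene, and Ahcyl2 had means of 0.160 ± 0.098 and 0.162 ± 0.073 (SD, n = 4). In all 3 replicate 4 was the highest library, and their values in replicate 4 lay between 0.263 and 0.298, near the lowest relative height of any lone site there, 0.246. The largest spread over libraries on the log2 scale was that of Pcdh9 (SD 1.29), then Gm26991 (1.22) and Sfxn5 (1.19), a mitochondrial transporter gene whose site had 0.114, 0.194, 0.420 and 0.737.

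The sites with most footprints were wide. The one in Antxr1, which encodes an anthrax toxin receptor, was 560 bp wide (chr6:87152861-87153420) and had 10, 6, 11 and 1 footprints in replicates 1 to 4, at a mean relative height of 0.924 ± 0.113 (SD, n = 4). The Gphn site had 7, 4, 7 and 5, and a 560 bp site in Pofut1, the enzyme that adds fucose to Notch receptors, had 8, 6, 8 and 0. Neither Antxr1 nor Pofut1 held a CTCF match. Over all lone sites the mean number of footprints a site was 3.18, 3.01, 2.70 and 0.455, against 3.54, 3.43, 3.08 and 0.736 in clustered sites, lower in 4 of 4 libraries.

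Beside Pcdh9, the most isolated sites were those in Cntnap5b, 1722 kb from the next site with a relative height of 0.148, 0.181, 0.0887 and 0.281, and in Zfp600, 399 kb away with 0.165, 0.0849, 0.317 and 0.474 and 8 copies of its centre. All 3 lacked a CTCF match. At the edge of the rule, the sites just inside lay in Gfpt2 (12520 bp from the next site), Armc10 (12560 bp) and 2010300C02Rik (12580 bp) and had mean relative heights of 0.740, 0.549 and 0.599. Just outside, sites in Prim2 (12500 bp) and Lrrk1 (12483 bp) had 0.249 and 0.861. Sites called in only 1 or 2 libraries did not count as neighbours, and 426 of the 785 lone sites had at least 1 such site within 12.5 kb, while 359 (45.7%) had none.

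The host genes were long. The sites fell in 732 distinct genes, of which 683 held 1 site, 45 held 2 and 4 held 3 (Btbd9, Fgfr2, Gm20388 and Rad51b). The median host spanned 98.2 kb and the median intron 16.7 kb. In 678 cases a host was protein-coding, and 107 sites had only a non-coding or other host. The first intron held 196 sites and the last 119. The median distance to the nearest start was 10.7 kb and that to the nearest site 26.0 kb, with quartiles of 17.8 and 42.4 kb, and for 38.7% the nearest site lay within 1 kb of a start. Both distances, and through them the length of the host, were shaped by the rule.

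Many host promoters were themselves accessible. A site called in all 4 libraries stood within 1 kb of a start of 70.9% of the 628 protein-coding hosts of lone sites, against 85.0% of the 1032 hosts of clustered sites and 56.4% of all protein-coding genes. Among genes over 100 kb the share was 58.7%. Since a promoter within 12.5 kb removes a site from the lone set, the rule bears on the difference between lone and clustered hosts. Lone-site hosts had a median length of 102 kb, against 60.6 kb for hosts of clustered sites and 17.6 kb for all protein-coding genes.

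The host genes were set against the gene lists. Of 26 T cell identity genes, 2 did (Prkcq and Skap1), against 6 that held a clustered one (Bcl11b, Cd247, Ets1, Fyn, Lef1 and Prkcq). Of 6 CD8 lineage genes, Runx1 held a lone site, and Runx1 and Runx3 clustered ones. Of 21 genes of the naive and quiescent state, Foxp1 held a lone site, while Bach2, Ikzf1 and Il6ra held clustered ones. None of 21 activation and exhaustion genes and none of 15 cytotoxic effector and memory genes held a lone site, against 4 and 1 that held a clustered one. Of 14 B cell genes, Ebf1 and Pax5 held a lone site, and of 12 myeloid genes Spi1 did. No gene of the neural, hepatocyte and chromatin architecture lists (14, 12 and 12 genes) held one. Of all 20807 protein-coding genes, 3.02% held a lone site and 4.96% a clustered one, and the lists are too short to read a share from.

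The 7 sites in these genes differed in height and motif. Spi1 encodes PU.1, a factor of myeloid and B cells, and its site in intron 2 (chr2:91101501-91101680) had relative heights of 1.65, 2.19, 1.77 and 1.14, with a CTCF match at 1 mismatch. Prkcq encodes protein kinase C theta, which signals downstream of the T cell receptor, and its site in intron 15 of 17 (chr2:11288561-11288740) had 1.43, 1.54, 1.01 and 1.03, with an exact CTCF match 1 bp from the midpoint. Both exceeded 1 in all 4 libraries. Runx1, a core T lineage factor, had 0.879, 0.883, 0.758 and 1.14 in intron 2 (chr16:92801641-92801900), with no CTCF match. Skap1, an adaptor between the T cell receptor and integrins, had 0.546, 0.530, 0.492 and 0.614 in intron 4 (chr11:96621301-96621460), with an exact match. Those 2 genes had their highest value in replicate 4.

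Pax5, the B cell identity factor, held its site in intron 8 (chr4:44564661-44564860), 105 kb from the next site, with 0.355, 0.262, 0.423 and 0.561 and an exact CTCF match. Ebf1, another B cell factor, had 0.337, 0.394, 0.464 and 0.351 (chr11:44892916-44893180), with no match. Foxp1, a factor that keeps naive T cells quiescent, had 0.176, 0.140, 0.375 and 0.491 in a 480 bp site (chr6:99057101-99057580), with no match. In Pax5 and Foxp1 both replicates 3 and 4 exceeded both replicates 1 and 2, as at the promoters of Pax5 and Cd79a. The same held for 129 of all 785 lone sites, while in 247 of them both replicates 3 and 4 were lower than both replicates 1 and 2. Both were higher in 5773 of the 17134 sites called in all 4 libraries, and in 4762 of the 11466 of these within 1 kb of a start. The part of other cells in these values was not tested.

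Relative heights of the lone sites ranked alike across libraries. Spearman's rho over the 785 sites was 0.912 between replicates 1 and 2, 0.908 and 0.863 between these and replicate 3, and 0.671, 0.638 and 0.729 between replicates 1, 2 and 3 and replicate 4. These describe sites of shared libraries, and replicate 4 was also the shallowest. The median SD of the log2 relative height over libraries was 0.31 in lone sites and 0.29 in clustered ones.

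Base composition and repeats differed little between the sets. The median GC content of the central 200 bp was 52.0% in lone sites, against 53.0% in clustered sites and 65.5% in sites within 1 kb of a start, and the median number of CpG dinucleotides was 3, against 4 and 18. Repeats covered over 50% of the window in 29 lone sites (3.69%), against 76 clustered ones (5.01%).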

How the data were processed

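DNase-seq of 4 libraries of 1 group was used. Per the labels, the build is mm10, and the text deposited with each library says that its lists come from its own filtered alignment. No source used here names the aligner or the peak caller. Peak heights, as deposited by the authors, are a signal scaled to library depth. Footprints carry a deposited p-value or q-value of 0.01 in every entry and were used as present or absent. The deposited cut-rate lists were not used.

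The longer lists were merged by 1 bp overlap and filtered by the rule given above, where a library with several peaks in a site contributed the tallest. Members and gene and motif lists were chosen with earlier results of these data known. Values per library were compared by a two-sided exact sign-flip permutation test over 4 libraries, with Benjamini-Hochberg adjustment over 6 tests. Motifs were 29 consensus families, searched on both strands in 200 bp at the midpoint of the site. Copies were exact matches of the central 36 bases on the assembled chromosomes and the mitochondrial genome. Copies in unplaced or unassembled sequence were not counted. Named sites were the 10 highest, the 3 lowest, the 3 most isolated, the 3 with most footprints, the 3 with the largest spread, 3 on each side of the isolation distance and those in listed genes; the example sequences without a CTCF match, and those from listed genes, were added after values were seen. Among named items, 1 site just outside the isolation distance and 1 marker gene are not reported here. Read counts per site were not used, so single heights have no interval of their own. The merging, rule, footprint and motif steps were tested on simulated data, with 0 of 77573 merged sites and 0 of 1000 planted motifs wrong. Alternatives were other isolation distances (5 and 25 kb), the shorter lists, 50% cover, protein-coding genes only, leaving out each library, other motif windows and footprint definitions, and, added after seeing the data, replicates 1 and 2 only. Tools were bedtools 2.31.1, pysam 0.24.0, pandas 2.3.3, scipy 1.17.1, numpy 2.4.6 and Python 3.11.15.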

Additional observations from a re-analysis of the deposited data

Results flagged for a closer look

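Of 35 groups of 4 libraries that were looked at, 2 had a library far from the other 3; chance flags about 1 in 20 groups. In the height difference between lone and clustered intronic sites, replicate 2 stood apart at -0.4681 on the log2 scale, with the other libraries between -0.42 and -0.41. All 4 values have the same sign. In the difference in the share of sites with a footprint, replicate 4 stood apart at -14.92 percentage points, with the others between 0.229 and 0.449. Replicate 4 also had the fewest footprints, 26149, and the lowest step reciprocal, 24.3; the part of depth in the difference was not tested.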

How the results depend on the processing

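The height difference between lone and clustered intronic sites kept its sign under each alternative that could change it (-0.56 to -0.31); using heights as deposited only rescales each library and cannot. The number of lone sites depended on the selection. It was 1310 and 415 at isolation distances of 5 and 25 kb, 437 with the shorter lists, 4196 with replicates 1 and 2 only, and from 1393 to 3551 without 1 library, where fewer libraries had to call a member. It stayed at 705 with 50% cover and 705 with protein-coding genes only. With 50% cover the width difference was 0.0 bp, the CTCF share difference 1.41 points, the height difference of sites with a CTCF match -0.07325 and their footprint difference -0.6166 points. With the shorter lists the height difference of sites with a CTCF match was -0.1433 and their footprint difference -1.579 points. With 1 mismatch allowed, the CTCF share difference was 10.46 points, at 25 kb it was 2.67, and without 1 library from 3.34 to 5.40. The cause of these changes was not tested. With members selected from replicates 1 to 3, the footprint difference between lone and clustered sites was -3.01 points, whereas the members in the text had a positive difference in each of those libraries. Named sites called in the shorter lists of all 4 libraries had lower relative heights there, and the other named sites have no such value. These heights are scaled to the library medians of the shorter lists, which act alike on each site. The part of these medians in the change was not tested. No paired analysis between groups was possible because the libraries form a single group. The tests compare sets of sites within each library. The depth of replicate 4 limits membership, and the exact sign-flip permutation test over 4 libraries cannot give a p under 0.125.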
